A study of Mus musculus with 18 samples.

Results

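Here 10 genes that set how long messenger RNAs last were followed through the response of mouse mammary carcinoma cells to an HSP90 inhibitor. They were taken by symbol: the tandem zinc finger genes Zfp36, Zfp36l1 and Zfp36l2, the BTG/TOB genes Btg1, Btg2, Tob1 and Tob2, and the RNA-binding protein genes Rc3h1, Elavl1 and Khsrp. All 10 were present among the 24421 genes of the count table, and all 10 were among the 13507 genes that passed the filter on low counts. The study compared 4T1, a wild-type carcinoma line of strain BALB/cfC3H, with 4T1R1 and 4T1R2, populations grown from 4T1 cells that had survived repeated exposure to 17-DMAG, a geldanamycin derivative that blocks the chaperone HSP90. The resistant populations are mixtures of survivors, not single clones. Cells of each population were sequenced untreated or after 1.5 µM 17-DMAG, in 3 biological replicates for each of 6 groups. The sample records give 48 h of exposure and the design text of the series gives 2 h, so the length of the exposure is uncertain, and these sources also differ on how the resistant cells were selected.

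Total RNA depleted of ribosomal RNA was sequenced, and the libraries held 23354461 to 55094630 counts. The ribosomal RNA precursor Rn45s took 9.54% to 15.6% of them. Among counts from 1 to 12, 65.6% to 70.8% were even, and whether both reads of a pair were counted is not given in the sources used here. The first and second replicate of 4T1 after 17-DMAG did not differ beyond sampling noise (chi-square per gene 1.099, against 2.04 to 2.22 in the 17 other pairs of replicates) and were counted as 1 sample, which leaves n = 2 there and n = 3 in the other groups. Counting both reads of a pair would raise the value that sampling noise alone gives, so the 17 other pairs need not exceed that noise. The library names of 4T1R1 form a series apart from those of 4T1 and 4T1R2. A difference between 4T1R1 and 4T1 that 4T1R2 does not share, and a difference between these runs of names, therefore cannot be told apart. The same holds for every difference between 4T1R1 and 4T1R2. The heat shock genes Hspa1b and Hsph1 rose after 17-DMAG in each population, Hspa1b by 5.11, 3.23 and 2.29 on the log2 scale in 4T1, 4T1R1 and 4T1R2, and the drug efflux pump gene Abcb1b was higher by 2.78 and 4.26 in untreated 4T1R1 and 4T1R2 than in 4T1. The epithelial markers Epcam, Krt8, Krt18 and Cdh1 were at or above 720 normalized counts (counts divided by the scaled library size) in every library, and the epithelial marker Krt14 was at 82.1 to 415. The leukocyte and endothelial genes Ptprc, Cd3e, Cd79a, Pecam1 and Cdh5 stayed at or below 18.2, while the leukocyte marker Cd68 was at 118 to 207.

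Most messenger RNAs decay once their poly(A) tail has been shortened. Proteins of the ZFP36 family bind AU-rich elements in the 3′ untranslated region (3′ UTR), typically stretches built on ATTTA, and bring the CCR4-NOT deadenylase to the transcript. BTG and TOB proteins bind the catalytic subunits of the same deadenylase, and BTG1 and BTG2 are also known as brakes on proliferation. Roquin-1, the product of Rc3h1, binds stem-loops in cytokine and immune transcripts and recruits CCR4-NOT as well, whereas KSRP, encoded by Khsrp, promotes decay of AU-rich transcripts with the help of the exosome. HuR, the product of Elavl1, binds AU-rich elements and mostly protects the transcript. The ZFP36 transcripts hold AU-rich elements themselves, and several of these genes are known as rapidly induced, short-lived messages.

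Windows are shown for Zfp36, Zfp36l1, Zfp36l2, Rc3h1 and Elavl1, whose 3′ UTRs hold the longer AU-rich nonamer TTATTTATT, and for Btg2 and Khsrp, whose 3′ UTRs do not. Those of Btg1, Tob1 and Tob2 are not printed. Each line is a window of 30 bases from the 3′ UTR (GENCODE vM21 models, GRCm38), 5′ to 3′, with the pentamer ATTTA in capitals.
Zfp36 3′ UTR, chr7:28376958-28376987, minus strand: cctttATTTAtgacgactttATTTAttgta
Zfp36l1 3′ UTR, chr12:80108431-80108460, minus strand: cttATTTAacttatcaaaacgtATTTAttg
Zfp36l2 3′ UTR, chr17:84184918-84184947, minus strand: gaaaaactATTTAacttATTTAttatcttg
Btg2 3′ UTR, chr1:134076017-134076046, minus strand: aATTTAtttgtagatgtgtgcaatATTTAc
Rc3h1 3′ UTR, chr1:160970033-160970062, plus strand: ttacATTTAtactttactcattATTTAttg
Elavl1 3′ UTR, chr8:4285777-4285806, minus strand: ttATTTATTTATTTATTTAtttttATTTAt
Khsrp 3′ UTR, chr17:57021586-57021615, minus strand: gaaaatagcaagaATTTAacctctgccccg
The windows were taken where 30 bases hold the most pentamers, by a search made after the values were known. The window of Zfp36l1 does not include its nonamer. The nonamer TTATTTATT occurred once in the 3′ UTRs of Zfp36, Zfp36l1, Zfp36l2 and Rc3h1 and 8 times in that of Elavl1, and did not occur in those of Btg1, Btg2, Tob1, Tob2 and Khsrp. Among 19092 genes with a 3′ UTR of at least 50 bases, 7.78% held it. Of 3′ UTRs of similar length, it was held by 28.3% for Rc3h1, 9.9% for Zfp36l1, 9.77% for Zfp36l2 and 4.39% for Zfp36. Only 0.139% of the 1442 3′ UTRs of a length similar to that of Elavl1 held as many copies. Of the 10 genes, Btg2 (chr1:134075170-134079120) and Rc3h1 (chr1:160906418-160974978) lie on chromosome 1, and Zfp36l2 (chr17:84183931-84187947) and Khsrp (chr17:57021051-57031522) on chromosome 17. Pentamer density was 4.90 per kb in Zfp36l1, 4.03 in Elavl1, 3.91 in Tob1 and 3.88 in Zfp36, and was lowest in Khsrp at 0.609, against a median of 1.30 over all genes. Relative to 3′ UTRs of similar length, 5.73% held as many pentamers as Zfp36l1, and 87.4% as many as Khsrp. The shares for the other members lay between 5.27% for Elavl1 and 57.9% for Tob2, with 20.6% for Zfp36 and Rc3h1.

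The promoters of 9 members were available in RefSeq (GRCm38.p6). The 250 bases before the start site are printed for Zfp36, Zfp36l1, Btg2 and Rc3h1, with motif matches in capitals. These were picked because they fell after 17-DMAG and matched a motif of an immediate-early or stress-responsive factor, so the printed set does not link the fall to a motif. Btg1 and Tob1 also fell in 4T1 and are not printed, and Zfp36l2 had no promoter sequence.
Zfp36 promoter, chr7:28379229-28379478, minus strand: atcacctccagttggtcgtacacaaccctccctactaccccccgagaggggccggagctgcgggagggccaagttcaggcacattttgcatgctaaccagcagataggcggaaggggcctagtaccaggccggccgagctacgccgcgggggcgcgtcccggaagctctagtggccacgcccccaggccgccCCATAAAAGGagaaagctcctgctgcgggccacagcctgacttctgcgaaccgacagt
Zfp36l1 promoter, chr12:80113014-80113263, minus strand: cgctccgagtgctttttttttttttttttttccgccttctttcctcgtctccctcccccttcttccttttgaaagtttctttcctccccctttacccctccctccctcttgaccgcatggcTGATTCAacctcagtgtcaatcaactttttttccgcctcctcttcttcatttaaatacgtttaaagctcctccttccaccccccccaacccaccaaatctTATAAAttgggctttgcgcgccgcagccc
Btg2 promoter, chr1:134079156-134079405, minus strand: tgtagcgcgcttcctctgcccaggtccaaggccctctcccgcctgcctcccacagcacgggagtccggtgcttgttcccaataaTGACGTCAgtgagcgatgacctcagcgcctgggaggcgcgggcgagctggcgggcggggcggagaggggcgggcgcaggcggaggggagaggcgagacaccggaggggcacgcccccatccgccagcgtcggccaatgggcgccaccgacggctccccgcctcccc
Rc3h1 promoter, chr1:160906161-160906410, plus strand: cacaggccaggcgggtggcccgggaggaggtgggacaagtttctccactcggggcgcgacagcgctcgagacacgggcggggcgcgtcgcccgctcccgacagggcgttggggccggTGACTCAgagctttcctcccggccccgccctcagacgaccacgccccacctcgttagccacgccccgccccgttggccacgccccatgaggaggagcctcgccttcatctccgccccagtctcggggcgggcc
The capitals mark a serum response CArG box in Zfp36 (first base at −58 from the start) and a cAMP response element TGACGTCA in Btg2 (−166). In Zfp36l1 they mark a match to the loose AP-1 pattern TGANTCA and a TATA box TATAAA (−129 and −29), and in Rc3h1 a match to the same AP-1 pattern (−133). The pattern takes any middle base, and the match reads TGATTCA in Zfp36l1 and TGACTCA in Rc3h1. Of 32851 mouse promoters, 1.47% held the CArG box in these 250 bases, 1.55% the cAMP response element, 6.75% the pattern TGANTCA with any middle base and 12.4% the TATA box, on either strand. The TATA box was also found in Btg1 and Tob1. The shorter site TGACG, which lies within the element of Btg2 and in 17.8% of all promoters, was also found in Btg1, Tob1 and Khsrp. No member promoter held the NF-κB motif (3.90% of all promoters) or the heat shock motifs GAANNTTC (6.69%) and TTCNNGAA (7.17%). These are matches of letters, searched after the values were known, and binding was not measured.

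After 17-DMAG, 7 of the 10 members fell in 4T1 cells and none rose (edgeR's quasi-likelihood test, Benjamini-Hochberg adjustment over all genes tested). At an unadjusted p under 0.05, and with DESeq2, the counts were likewise 7 lower and 0 higher. Of all genes, 18.4% were called higher and 17.9% lower in that comparison. The same 7 genes and Khsrp fell in 4T1R1, where Elavl1 rose, against 13.9% higher and 14.3% lower over all genes. In 4T1R2 there were 6 members that fell and 1 that rose, where only 6.18% of all genes were called higher and 4.35% lower. Over the 10 members the median log2 fold change in 4T1 was −0.74, against −0.23 for 4T1R1 and −0.15 for 4T1R2, while the median of all genes lay within 0.0086 of 0 in each. With libraries scaled by total counts alone, the median of all genes in 4T1 shifted by −0.115, and Elavl1 and Khsrp also passed the threshold there, so that 9 members were lower. In 4T1R1 the calls of Zfp36, Tob1 and Khsrp were lost under that scaling. In 4T1R2 only 4 members were called, all lower, without untreated replicate 2, and under total-count scaling 6 were lower and none higher there.

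**Figure D1:**
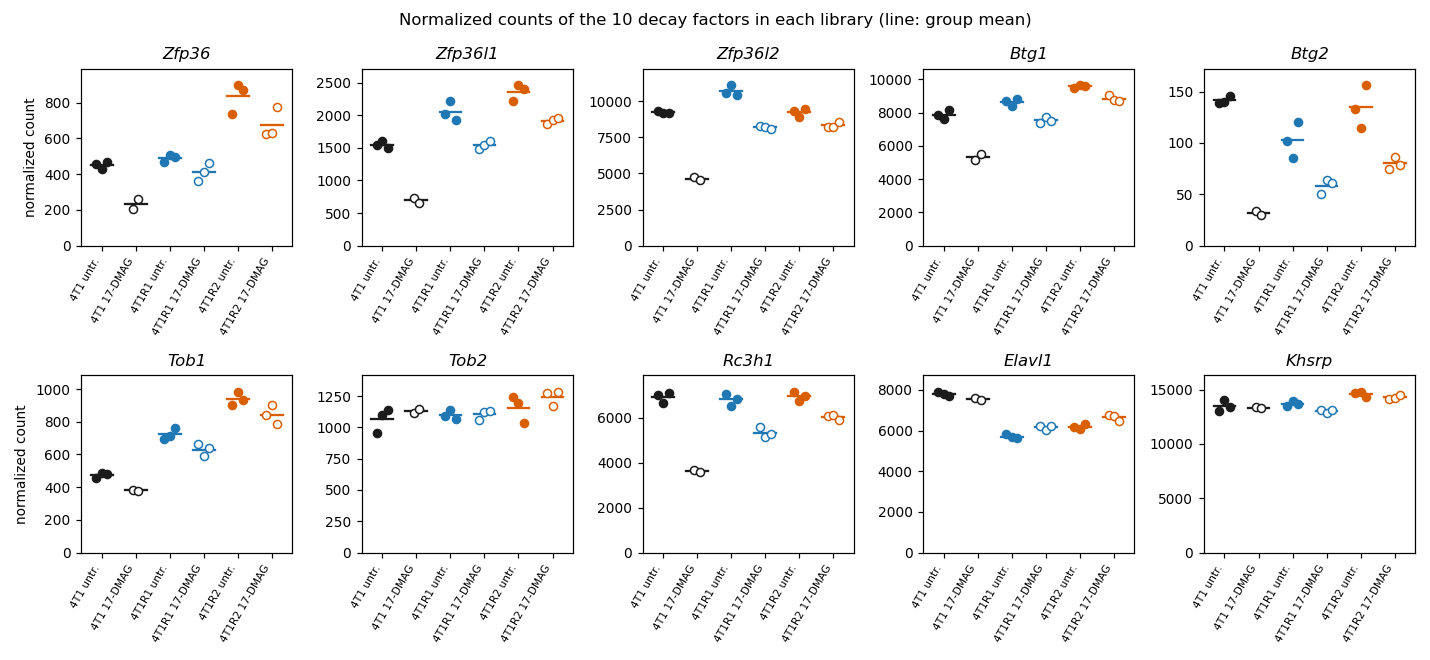
Normalized counts (y axis, from 0) of each of the 10 genes in every library, by group (x axis); filled points are untreated, open points 17-DMAG-treated, and lines are group means. The pair of 17-DMAG-treated 4T1 points lies below all other libraries for Zfp36, Zfp36l1, Zfp36l2, Btg1, Btg2, Tob1 and Rc3h1, and the groups overlap for Tob2.

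The 3 ZFP36 genes lost about the same proportion of their transcript in 4T1 and much less in the resistant populations. Zfp36, which encodes tristetraprolin, had 458, 426 and 469 normalized counts in untreated 4T1 and 205 and 261 after 17-DMAG. It had 469, 505 and 495 in untreated 4T1R1 and 361, 411 and 460 after the drug, and in 4T1R2 the values were 736, 900 and 871 and then 622, 629 and 775. The groups did not overlap in 4T1 or 4T1R1, and in 4T1R2 the highest treated library lay above the lowest untreated one. In log2 units, Zfp36 fell by 0.97 in 4T1 (SE 0.118, adjusted p = 9.01e-09), by 0.26 in 4T1R1 (SE 0.0967, adjusted p = 0.0426) and by 0.30 in 4T1R2 (SE 0.0877, adjusted p = 0.0184). The calls in the resistant populations depended on single libraries: in 4T1R1 the call was lost under total-count scaling and without 4T1 17-DMAG replicate 2, untreated 4T1R1 replicate 2 or 3 or 4T1R1 17-DMAG replicate 1 or 2, with values from −0.26 to −0.17, and in 4T1R2 it was lost without untreated replicate 2 or 3 or 17-DMAG replicate 1 or 2, with values from −0.27 to −0.25.

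Zfp36l1, a paralogue that binds the same elements, had 1541, 1606 and 1504 normalized counts in untreated 4T1 and 730 and 658 after 17-DMAG. In 4T1R1 the values were 2019, 2218 and 1930 untreated and 1490, 1550 and 1611 treated, and in 4T1R2 they were 2215, 2469 and 2407 and then 1866, 1934 and 1955. Every treated library lay below every untreated one of its population, and treated 4T1R1 (1490 to 1611) overlapped untreated 4T1. The log2 change was −1.15 in 4T1 (SE 0.0649, adjusted p = 2.29e-18), −0.41 in 4T1R1 (SE 0.0517, adjusted p = 6.73e-08) and −0.30 in 4T1R2 (SE 0.0503, adjusted p = 4.56e-05). Zfp36l2, the third paralogue of the family, had 9313, 9158 and 9196 normalized counts in untreated 4T1 and 4755 and 4529 after the drug. It went from 10558, 11144 and 10454 to 8279, 8246 and 8097 in 4T1R1, and from 9325, 8908 and 9431 to 8193, 8248 and 8537 in 4T1R2. Treated and untreated groups did not overlap within a population, and the step was widest in 4T1, while untreated 4T1 overlapped untreated 4T1R2 and treated 4T1R1 overlapped treated 4T1R2. Its log2 change was −0.99 in 4T1 (SE 0.0355, adjusted p = 4.36e-25), −0.38 in 4T1R1 (SE 0.0302, adjusted p = 3.33e-13) and −0.15 in 4T1R2 (SE 0.0303, adjusted p = 0.000675).

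The cells of a culture were sequenced in bulk, so fewer cells that express a gene and less of its RNA per cell cannot be told apart, and neither can slower synthesis and faster decay. Of the markers of other cell types, the fibroblast list (Col1a1, Col1a2 and Pdgfra) moved with the drug, its summed normalized counts going from 688 to 767 untreated down to 399 to 421 treated in 4T1, from 835 to 893 down to 710 to 772 in 4T1R1 and from 918 to 1043 down to 799 to 909 in 4T1R2. Pdgfra made up nearly all of it, at 375 to 1027, while the defining collagen genes Col1a1 and Col1a2 reached at most 18.8 and 19.7. The leukocyte list (Ptprc, Cd68, Cd3e and Cd79a) summed to 135 to 199 in untreated and 168 to 194 in treated 4T1, mostly of Cd68, with Cd3e at 0 to 2.34 and Cd79a at 0 to 8.19.

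Among the BTG/TOB genes, Btg2 fell furthest, Btg1 and Tob1 fell less, and Tob2 did not pass the test in any population. Btg2, a p53 target that slows the cell cycle and binds the CNOT7 and CNOT8 deadenylases, had 139, 140 and 145 normalized counts in untreated 4T1 and 33.8 and 30.2 after 17-DMAG. It had 102, 85.5 and 121 in untreated 4T1R1 and 50.8, 63.5 and 60.9 in treated cells, and went from 133, 115 and 157 to 75.1, 86.6 and 78.9 in 4T1R2. All treated libraries lay below all untreated ones, including those of other populations except treated 4T1R2 against untreated 4T1R1, where the highest treated value passed the lowest untreated one. The fold change was 4.38-fold lower in 4T1 (log2 −2.13, SE 0.218, adjusted p = 1.12e-10), which placed Btg2 at position 66 from the lowest of the 13507 genes. The log2 change was −0.82 in 4T1R1 (SE 0.181, adjusted p = 0.000496) and −0.75 in 4T1R2 (SE 0.167, adjusted p = 0.00176). Btg2 was the least abundant member, with counts before scaling of 42 (the mean of replicates 1 and 2) and 28 in the treated 4T1 samples. Its standard errors were the widest of the 10.

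Btg1, its close relative, was far more abundant and changed less. It had 7829, 7636 and 8144 normalized counts in untreated 4T1 and 5181 and 5511 after the drug, 8722, 8406 and 8837 against 7392, 7757 and 7471 in 4T1R1, and 9464, 9678 and 9619 against 9057, 8757 and 8725 in 4T1R2. None of these pairs of groups overlapped. The log2 change was −0.56 in 4T1 (SE 0.0358, adjusted p = 1.41e-16), −0.20 in 4T1R1 (SE 0.0311, adjusted p = 3.65e-06) and −0.12 in 4T1R2 (SE 0.0309, adjusted p = 0.0103), and the last of these calls was lost without untreated 4T1R2 replicate 2, at a value of −0.11. Tob1, which links the deadenylase to the poly(A)-binding protein, had 456, 487 and 483 normalized counts in untreated 4T1 and 381 and 379 in treated 4T1. Its values were 696, 712 and 761 against 662, 589 and 640 in 4T1R1, and 905, 985 and 933 against 843, 901 and 787 in 4T1R2. Treated libraries lay below untreated ones throughout, by a narrow margin in 4T1R2.

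Tob1 fell by 0.32 in 4T1 (SE 0.0848, adjusted p = 0.00224) and by 0.20 in 4T1R1 (SE 0.0688, adjusted p = 0.0269), and in 4T1R2 its log2 change of −0.15 (SE 0.0656, adjusted p = 0.135) did not pass the threshold. The call in 4T1R1 was lost under total-count scaling and without untreated 4T1R1 replicate 3 or 4T1R1 17-DMAG replicate 2, with values between −0.16 and −0.15. Tob2, the paralogue of Tob1, had 957 to 1137 normalized counts in untreated 4T1 and 1115 and 1145 after 17-DMAG, and the groups overlapped in every population. Its log2 change was 0.09 in 4T1 (SE 0.0705), 0.01 in 4T1R1 (SE 0.0635) and 0.10 in 4T1R2 (SE 0.0628), with adjusted p-values of 0.374, 0.949 and 0.360, and total-count scaling turned the value in 4T1 to −0.03.

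Of the other RNA-binding proteins, Rc3h1 behaved like the ZFP36 genes, whereas Elavl1 and Khsrp moved by at most 0.11 on the log2 scale in each population. Rc3h1 had 6999, 6650 and 7111 normalized counts in untreated 4T1 and 3672 and 3588 after 17-DMAG. The values were 7066, 6528 and 6854 against 5591, 5151 and 5276 in 4T1R1, and 7167, 6737 and 6964 against 6082, 6145 and 5888 in 4T1R2. The 3 untreated groups overlapped one another, and the treated groups were separate, lowest in 4T1 and highest in 4T1R2. Rc3h1 fell by 0.93 in 4T1 (SE 0.0407, adjusted p = 4.93e-22), by 0.35 in 4T1R1 (SE 0.0351, adjusted p = 2.39e-10) and by 0.20 in 4T1R2 (SE 0.0348, adjusted p = 5.38e-05).

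Elavl1, which encodes the stabilizing factor HuR, had 7916, 7819 and 7683 normalized counts in untreated 4T1 and 7599 and 7483 in treated 4T1, a log2 change of −0.05 (SE 0.0331, adjusted p = 0.262). In 4T1R1 it rose from 5815, 5678 and 5613 to 6224, 6012 and 6238, by 0.11 (SE 0.0303, adjusted p = 0.00465), and in 4T1R2 from 6169, 6052 and 6308 to 6769, 6697 and 6475, also by 0.11 (SE 0.0301, adjusted p = 0.0167). The groups did not overlap in any population. The fall in 4T1 became a call under total-count scaling (−0.17), and the rise in 4T1R2 was lost under that scaling (0.06) and without untreated 4T1R2 replicate 1 or 2 or 4T1R2 17-DMAG replicate 1 or 2 (0.09 to 0.10). Exons of Elavl1 overlap Ccl25 on the opposite strand, and the use of strand in counting is not given in the sources used here. Ccl25 had 68 to 201 counts, which do not show how reads in the overlap were assigned. The effect of the overlap on Elavl1 was not tested. Khsrp had 13042, 14049 and 13383 normalized counts in untreated 4T1 and 13426 and 13258 after 17-DMAG, which overlapped. Its log2 change was −0.02 in 4T1 (SE 0.0307, adjusted p = 0.740), −0.07 in 4T1R1 (SE 0.0275, adjusted p = 0.0413) and −0.03 in 4T1R2 (SE 0.0274, adjusted p = 0.553). The call in 4T1R1 was lost under total-count scaling (−0.04), a minimum of 10 counts in every library, a fit of only the groups compared, and without untreated 4T1R1 replicate 2 or 3 or any of the treated 4T1R1 replicates (−0.08 to −0.06).

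**Figure D2:**
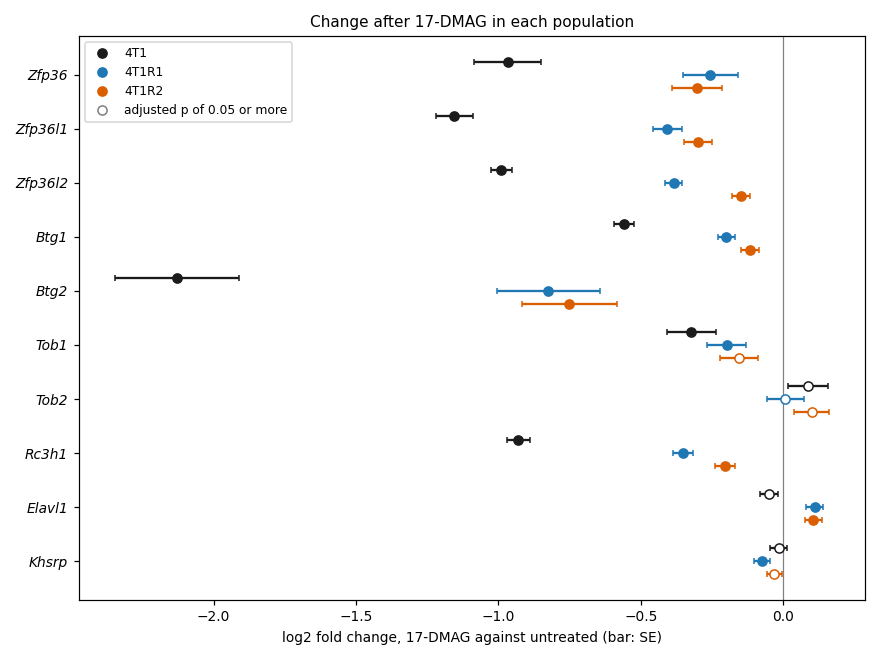
Log2 fold change after 17-DMAG (x axis) of each gene (y axis) in 4T1 (black), 4T1R1 (blue) and 4T1R2 (orange), with bars of 1 SE; open points did not pass an adjusted p of 0.05. Btg2 lies lowest, at −2.13 in 4T1, and the black points of the 3 ZFP36 genes and Rc3h1 lie between −1.15 and −0.93.

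Whether the response differed between populations was tested as an interaction, so the smaller falls in the resistant cells do not rest on which values passed a threshold. In 4T1R1, 7 members had a higher (less negative, or for Elavl1 positive) response than in 4T1, and none a lower one, where 9.16% of all genes were called higher and 9.08% lower. The count was also 7 and 0 in 4T1R2, against 9.62% higher and 8.16% lower, and both zeros held at an unadjusted p under 0.05 and with DESeq2. These comparisons share the 4T1 samples. The genes were Zfp36, Zfp36l1, Zfp36l2, Btg1, Btg2, Rc3h1 and Elavl1 in each. The difference of responses was widest for Btg2, at 1.31 for 4T1R1 (SE 0.289, adjusted p = 0.000915) and 1.38 for 4T1R2 (SE 0.279, adjusted p = 0.000277) on the log2 scale. For Zfp36l1 it was 0.75 (SE 0.0830) and 0.86 (SE 0.0821), and for Rc3h1 0.58 (SE 0.0534) and 0.73 (SE 0.0533). Tob1 did not differ beyond the threshold, at 0.12 (SE 0.109, adjusted p = 0.499) and 0.17 (SE 0.107, adjusted p = 0.318), although it was called lower after the drug in 4T1 and not in 4T1R2. The smaller response was not confined to the members. Of all genes, 36.4% were called after the drug in 4T1, 28.2% in 4T1R1 and 10.5% in 4T1R2, and Hsph1 rose by 2.72, 1.75 and 1.18. All of the 7 but Elavl1 had been called lower in 4T1, whereas the shares given are over all genes. Whether the members differed more than other genes that fell in 4T1 was not tested. The difference of Zfp36 in 4T1R2, 0.66, was lost without both averaged 4T1 libraries (0.49), and those of Elavl1, 0.16 in each population, were lost without 4T1 17-DMAG replicate 3 (0.15).

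Before treatment, the resistant populations held more Zfp36l1, Btg1 and Tob1 and less Elavl1 than 4T1. Of the 10 members, 4 were higher and 2 lower in untreated 4T1R1, where 25.2% of all genes were called higher and 27.5% lower. In untreated 4T1R2, 5 were higher and 1 lower, against 25.6% higher and 26.9% lower over all genes. Against untreated 4T1R1, 6 were higher and 1 lower in untreated 4T1R2, with 19.7% of all genes higher and 19% lower. That comparison lies wholly across the runs of library names. These 3 comparisons share samples, and 52.7% and 52.4% of all genes were called in either direction between 4T1 and each resistant population.

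**Figure D3:**
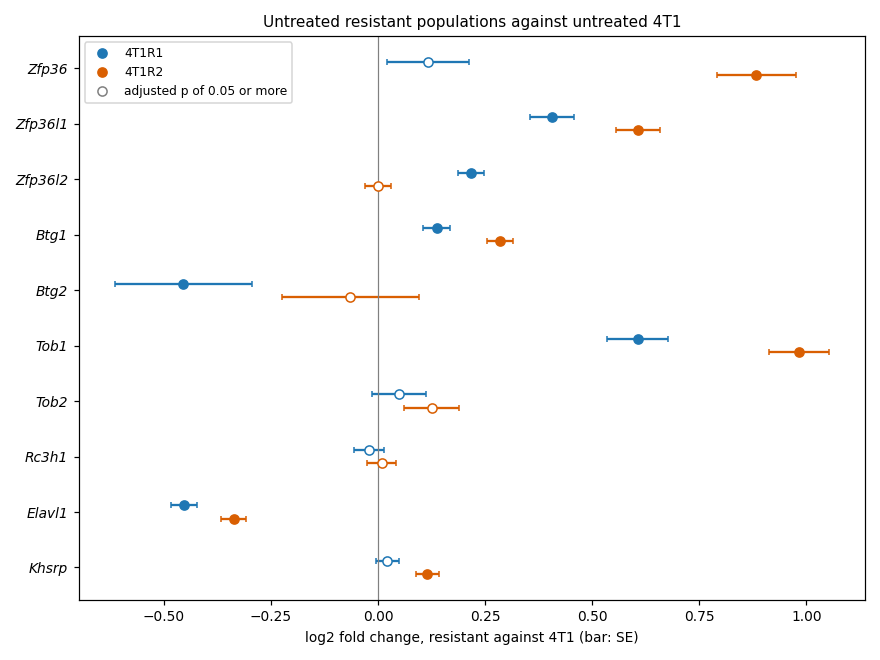
Log2 fold change of each gene (y axis) in untreated 4T1R1 (blue) and 4T1R2 (orange) against untreated 4T1 (x axis), with bars of 1 SE; open points did not pass an adjusted p of 0.05. Tob1 and Zfp36 in 4T1R2 lie highest, at 0.98 and 0.88, and both Elavl1 points lie below 0.

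Tob1 had the widest difference of the members in both comparisons with 4T1. It stepped up without overlap from 456 to 487 normalized counts in untreated 4T1 to 696 to 761 in 4T1R1 and 905 to 985 in 4T1R2. It was higher than in 4T1 by 0.61 in 4T1R1 (SE 0.0709, adjusted p = 1.61e-09) and by 0.98 in 4T1R2 (SE 0.0702, adjusted p = 1.95e-15), and 4T1R2 exceeded 4T1R1 by 0.38 (adjusted p = 1.42e-05). Even treated Tob1 levels in the resistant cells, 589 to 901, stayed above those of untreated 4T1. Btg1 was higher by 0.14 in 4T1R1 (adjusted p = 0.000261) and by 0.28 in 4T1R2 (adjusted p = 2.95e-10). Btg2 was lower in 4T1R1 by 0.45 on the log2 scale (log2 −0.45, SE 0.161, adjusted p = 0.0162), a call lost without untreated 4T1R1 replicate 2 (−0.34), and its log2 difference in 4T1R2 was −0.06 (SE 0.159, adjusted p = 0.756). Tob2 passed the threshold in neither population, at 0.05 (SE 0.0637) and 0.13 (SE 0.0642), although the value in 4T1R2 became a call without untreated 4T1 replicate 3 (0.18) or untreated 4T1R2 replicate 3 (0.20), with adjusted p-values from 0.0124 to 0.526 over the alternatives.

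In the ZFP36 family the populations differed gene by gene. Zfp36 was 1.85-fold higher in untreated 4T1R2 than in 4T1 (log2 0.88, SE 0.0922, adjusted p = 8.77e-11), whereas in 4T1R1 its log2 difference was 0.12 (SE 0.0954, adjusted p = 0.318). The direct comparison of 4T1R2 with 4T1R1 gave 0.77 (SE 0.0910, adjusted p = 5.46e-09). Zfp36l1 was higher in both, by 0.41 (SE 0.0516, adjusted p = 1.07e-08) and 0.61 (SE 0.0516, adjusted p = 3.45e-13). Zfp36l2 was higher in 4T1R1 by 0.22 (SE 0.0300, adjusted p = 7.18e-08) and in 4T1R2 its log2 difference was 0.0003 (SE 0.0303, adjusted p = 0.995). Treated 4T1R2 cells thus still held 622 to 775 normalized counts of Zfp36, above the 426 to 469 of untreated 4T1.

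Rc3h1 did not pass the threshold before treatment, with a log2 difference of −0.02 in 4T1R1 (SE 0.0346, adjusted p = 0.623) and 0.01 in 4T1R2 (SE 0.0348, adjusted p = 0.864). Elavl1 was lower in both resistant populations, by −0.45 in 4T1R1 (SE 0.0300, adjusted p = 1.94e-16) and −0.34 in 4T1R2 (SE 0.0301, adjusted p = 1.23e-12), and its 6 untreated resistant libraries (5613 to 6308) lay below the 3 of 4T1. Khsrp was higher in 4T1R2 by 0.11 (SE 0.0275, adjusted p = 0.000509), and its log2 difference in 4T1R1 was 0.02 (SE 0.0274, adjusted p = 0.534). The summed epithelial markers also differed between these groups, at 60589 to 61383 in untreated 4T1, 41923 to 43749 in 4T1R1 and 47847 to 48628 in 4T1R2, as did the leukocyte list between untreated 4T1 (135 to 199) and 4T1R1 (208 to 217), with 199 to 205 in 4T1R2. Their part in the differences of the members was not tested.

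To compare genes with one another, CPM values (counts scaled to the library size) were divided by exon length in kb. In untreated 4T1, Khsrp was the most abundant member at 109 ± 4.12 CPM per kb (SD, n = 3), followed by Zfp36l2 at 84.4 ± 0.737, Btg1 at 48.2 ± 1.57 and Elavl1 at 43.4 ± 0.652. Rc3h1 (20.3 ± 0.706) and Zfp36l1 (16.8 ± 0.559) came next, and Tob2 (8.27 ± 0.733), Tob1 (6.71 ± 0.241), Zfp36 (4.20 ± 0.206) and Btg2 (1.66 ± 0.0409) were the least abundant. Zfp36l2 thus made up 80.1% ± 0.342 of the summed ZFP36 family in untreated 4T1, and Btg1 74.3% ± 1.15 of the summed BTG/TOB family. The merged exon length of Zfp36, 3470 bases, takes in its whole gene span, including the RefSeq promoter printed above. Its value per kb may therefore be too low, and its rank and the share of Zfp36l2 depend on that length.

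Summed over its 3 genes, the ZFP36 family stood at 105 ± 0.707 CPM per kb in untreated 4T1 and 52.1 ± 1.64 after 17-DMAG (n = 2). In 4T1R1 it went from 125 ± 5.09 to 95.7 ± 0.412, and in 4T1R2 from 118 ± 2.36 to 103 ± 2.89. The treated 4T1 samples (51.0 and 53.3) lay well below the lowest of the other libraries, 95.2, and treated 4T1R2 (101 to 106) overlapped untreated 4T1 (105 to 106). The BTG/TOB family went from 64.8 ± 2.09 to 47.3 ± 1.55 in 4T1, from 73.0 ± 1.603 to 64.3 ± 0.930 in 4T1R1 and from 82.6 ± 1.05 to 76.7 ± 1.37 in 4T1R2. In 4T1R2 the treated cells therefore held more BTG/TOB transcript than untreated 4T1, with no overlap (75.4 to 78.2 against 63.4 to 67.2). These sums were not tested, and those of the ZFP36 family carry the limit of the exon length of Zfp36.

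**Figure D4:**
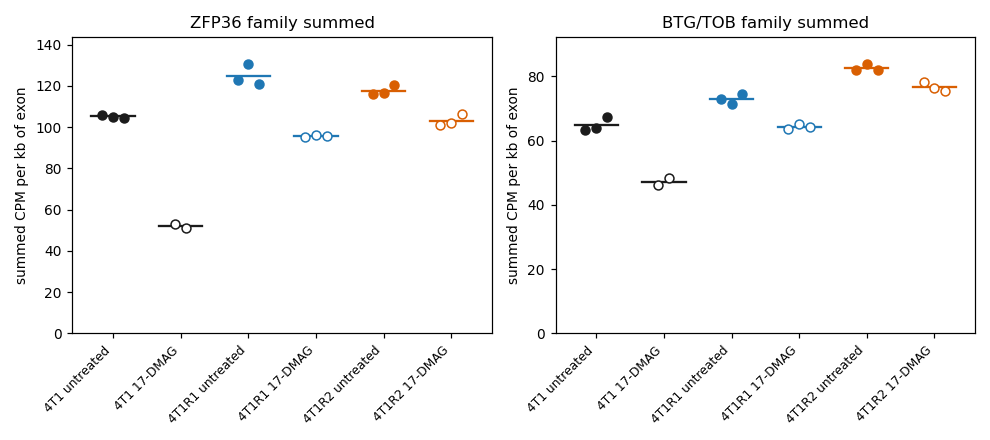
Summed CPM per kb of exon (y axis, from 0) of the 3 ZFP36 genes (left) and the 4 BTG/TOB genes (right) in every library, by group (x axis); filled points are untreated, open points 17-DMAG-treated, and lines are group means. Treated 4T1 is the lowest group in both panels, at 52.1 and 47.3.

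Transcripts of the deadenylases that these factors recruit were called about as often as all genes in 4T1 and before treatment. Of 14 genes of the CCR4-NOT and PAN2-PAN3 deadenylases, 5 fell and none rose in 4T1 after 17-DMAG (1 rose at an unadjusted p under 0.05, and none with DESeq2), with a median log2 change of −0.03, where 36.4% of all genes were called in either direction. Without 4T1 17-DMAG replicate 3, or without both averaged libraries, 2 and 3 fell. Cnot10 fell by 0.43 (SE 0.0495, adjusted p = 2.14e-09), Cnot6, a catalytic subunit, by 0.22 (SE 0.0426, adjusted p = 5.49e-05), and Cnot3 by 0.18 (SE 0.0485, adjusted p = 0.00291). In 4T1R1, where 28.2% of all genes were called, 2 of the 14 rose and 2 fell (1 each without untreated replicate 2, 17-DMAG replicate 1 or 17-DMAG replicate 3, and 3 and 1 under total-count scaling), and Cnot6 rose by 0.11 (SE 0.0383, adjusted p = 0.0311). In 4T1R2, with 10.5% of all genes called, edgeR and DESeq2 each called 0 of them, while 1 was higher and 2 were lower at an unadjusted p under 0.05, and 1 rose without 17-DMAG replicate 3. Before treatment 2 were higher and 5 lower in 4T1R1, and 2 higher and 6 lower in 4T1R2, against 52.7% and 52.4% of all genes called. Cnot6l was lower by −0.51 in 4T1R1 and −0.45 in 4T1R2, and Cnot7, the partner of BTG and TOB proteins, by −0.30 and −0.27.

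Among 31 genes of decapping, 5′-to-3′ decay and the exosome, 11 rose and 3 fell in 4T1 (median log2 change 0.06), 6 rose and 4 fell in 4T1R1 (0.02), and 3 rose and none fell in 4T1R2 (0.04). The shares of all genes higher and lower were 18.4% and 17.9% in 4T1, 13.9% and 14.3% in 4T1R1, and 6.18% and 4.35% in 4T1R2. The zero held at an unadjusted p under 0.05 and with DESeq2. The split turned with the scaling: by total counts alone, 3 rose and 9 fell in 4T1, and 10 rose and 2 fell in 4T1R1. The decapping enzyme gene Dcp2 rose in each population, by 0.39 in 4T1 (SE 0.0450, adjusted p = 2.96e-09), 0.31 in 4T1R1 (SE 0.0406, adjusted p = 1.03e-07) and 0.17 in 4T1R2 (SE 0.0414, adjusted p = 0.00449), and its cofactor Dcp1a rose by 0.37 in 4T1. All calls of this list in 4T1R2 were lost under total-count scaling. Without 4T1 17-DMAG replicate 3, 7 rose and 1 fell in 4T1, and without 4T1R1 17-DMAG replicate 1, 4 rose and 1 fell in 4T1R1. In untreated cells, 4 were higher and 16 lower in 4T1R1, and 12 higher and 7 lower in 4T1R2, where 25.2% and 27.5%, and 25.6% and 26.9%, of all genes were higher and lower. Lsm6, of the LSM ring that binds deadenylated ends, was lower by −0.78 and −0.55.

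Of 19 tested paralogues and other RNA-binding regulators of decay, 7 rose and 4 fell in 4T1, 7 rose and 3 fell in 4T1R1, and 6 rose and 1 fell in 4T1R2 (2 and 1 without untreated 4T1R2 replicate 2, and 1 and 1 under total-count scaling). By total counts alone, 3 rose and 7 fell in 4T1, and 9 rose and 2 fell in 4T1R1. Of all genes, 36.4%, 28.2% and 10.5% were called in either direction in 4T1, 4T1R1 and 4T1R2. Zc3h12a, which encodes the endoribonuclease regnase-1 that cuts many of the stem-loops Roquin binds, went from 249 ± 11.5 to 115 ± 24.3 normalized counts in 4T1, from 1954 ± 45.7 to 929 ± 50.9 in 4T1R1 and from 1759 ± 44.1 to 1334 ± 125 in 4T1R2. It fell by 1.14 (adjusted p = 2.54e-10), 1.07 (adjusted p = 1.93e-17) and 0.40 (adjusted p = 6.16e-06) on the log2 scale. Untreated resistant cells held more of it than 4T1, by 2.97 in 4T1R1 and 2.82 in 4T1R2 (adjusted p = 5.96e-31 and 6.86e-30). Rc3h2, the paralogue of Rc3h1, fell by 0.33 in 4T1 (SE 0.0432, adjusted p = 4.11e-08) but rose by 0.10 in 4T1R1 (SE 0.0382, adjusted p = 0.036), and its log2 change in 4T1R2 was −0.04 (adjusted p = 0.618). Fubp1, a relative of Khsrp, rose by 0.61, 0.45 and 0.23 in 4T1, 4T1R1 and 4T1R2. Untreated, 6 of the 19 were higher and 8 lower in 4T1R1 (6 and 5 by total counts alone), and 2 higher and 5 lower in 4T1R2, against 52.7% and 52.4% of all genes called. Hnrnpd, which encodes the AU-rich element binding protein AUF1, was lower by −0.63 and −0.38.

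Transcripts described as targets of the ZFP36 proteins were counted in the same comparisons. Of 21 tested, 12 fell and 2 rose in 4T1, with a median log2 change of −1.03, or −0.33 with the 5 genes whose counts were 3 or fewer throughout a group set to the bound of 3 counts per library. In 4T1R1, 11 fell and 4 rose (median −0.30), and in 4T1R2, 6 fell and 2 rose (−0.05), with 4 lower and 1 higher without untreated replicate 2 and 4 lower and none higher without 17-DMAG replicate 1, and 7 lower and none higher under total-count scaling. The shares of all genes lower and higher in these comparisons were 17.9% and 18.4%, 14.3% and 13.9%, and 4.35% and 6.18%. Before treatment 12 were higher and 4 lower in 4T1R1 (median 0.83), and 17 higher and 3 lower in 4T1R2 (0.84, or 0.71 with bounds), where 25.2% and 25.6% of all genes were higher and 27.5% and 26.9% lower. Fos, an immediate-early transcription factor, went from 725 ± 220 to 37.5 ± 3.51 normalized counts in 4T1, a log2 change of −4.29 (SE 0.236, adjusted p = 1.21e-18), and fell by 0.86 in 4T1R2 (adjusted p = 3.19e-06). In 4T1R1 its log2 change was −0.23 (adjusted p = 0.281). The chemokine gene Cxcl1 went from 563 ± 74.6 to 104 ± 15.4 in 4T1 (log2 −2.42, adjusted p = 1.45e-19) and from 4541 ± 179 to 2465 ± 222 in 4T1R1 (log2 −0.88, adjusted p = 5.38e-16), and its log2 change in 4T1R2 was −0.05 (adjusted p = 0.623). Ier3, a survival-linked early gene, fell by 1.52 in 4T1 (adjusted p = 6.15e-25), 0.89 in 4T1R1 (adjusted p = 6.39e-20) and 0.26 in 4T1R2 (adjusted p = 2.27e-05).

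Untreated 4T1R1 held 1244 ± 75.5 normalized counts of the chemokine gene Ccl2, at least 415-fold more than the 3 counts per library that bound its level in untreated 4T1. In untreated 4T1R2, Ccl2 stayed under the 100 normalized counts set for naming a gene. The gap between 4T1R1 and 4T1R2 lies across the runs of library names. Cxcl1 was higher by 3.01 in 4T1R1 and 2.66 in 4T1R2 (adjusted p = 9.19e-33 and 1.71e-30), whereas Plau, the urokinase gene, was lower by −1.26 and −1.33 and Notch1 was lower by −1.34 in 4T1R2. Several genes of this list are also known NF-κB or immediate-early genes, and the level of a transcript does not show which regulator set it.

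**Figure D5:**
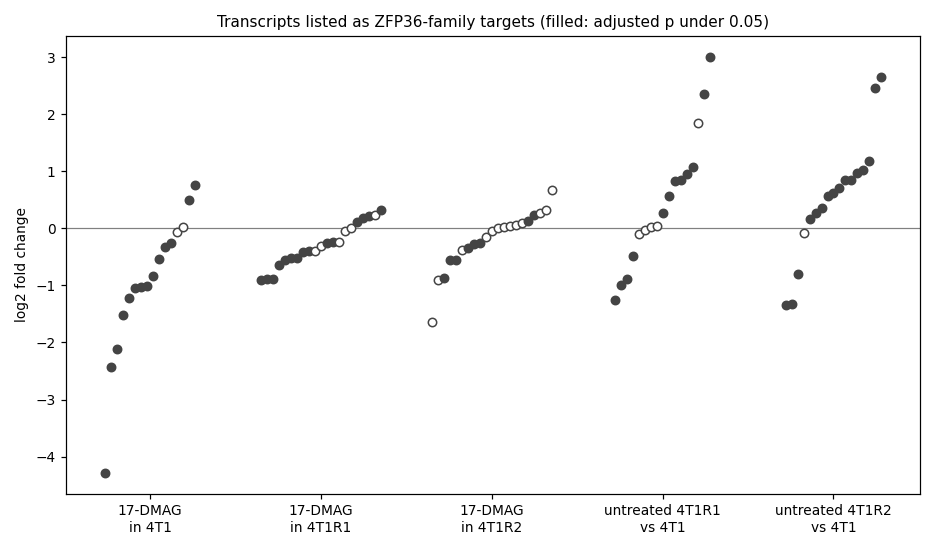
Log2 fold change (y axis) of each tested transcript listed as a ZFP36-family target, in the 17-DMAG response of the 3 populations and in both untreated resistant populations against 4T1 (x axis), ordered by value; genes at or below 3 counts in every library of a group are left out, and filled points passed an adjusted p of 0.05. Fos is the lowest point in 4T1, at −4.29, and Cxcl1 the highest in both untreated comparisons, at 3.01 and 2.66.

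Over all genes, those with the AU-rich nonamer and those without it had medians near 0. In 4T1, the median log2 change was 0.003 in the 967 tested genes whose 3′ UTR held TTATTTATT and 0.0007 in the 10995 without it, and 20.2% against 19.3% were called higher and 20.7% against 18.8% lower. In 4T1R1 the medians were 0.02 and −0.01, and in 4T1R2 0.02 and −0.002. The shares called higher were 18.9% against 14.2% in 4T1R1 and 7.76% against 6.58% in 4T1R2, and those called lower 13.5% against 15.4% and 5.89% against 4.42%. In untreated 4T1R1 26.6% against 26.1% were higher and 30.3% against 28.8% lower than in 4T1, and in untreated 4T1R2 25.1% against 27.0% were higher and 32.8% against 27.9% lower. Genes with the nonamer had longer 3′ UTRs (median 2291 against 1043 bases). Among 3′ UTRs of 1 to 2 kb, the medians in 4T1 were −0.03 with it (246 genes) and 0.002 without it (2756 genes), and 23.2% against 19.8% were lower there, 15% against 15.3% in 4T1R1 and 8.13% against 4.97% in 4T1R2. This division was chosen after the values were seen and is a description without a test.

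Across the 17 libraries, likeness between members was described by Pearson's r of log2 normalized counts, to which the drug response and the groups contribute. Among Zfp36, Zfp36l1, Zfp36l2, Btg2 and Rc3h1, the 5 that fell most in 4T1, r ranged from 0.659 (Zfp36 with Zfp36l2) to 0.939 (Btg2 with Rc3h1), and the highest r of any pair of members was 0.969, between Zfp36l1 and Btg1. Tob2 had no r above 0.575 with another member, and r between Elavl1 and every other member was below 0, from −0.705 with Tob1 to −0.0995 with Btg2. Among the 10329 other genes whose normalized counts averaged 100 or more, the one most like Zfp36l1 was Egln3 (r 0.991), a prolyl hydroxylase gene, with the fibroblast marker Pdgfra at the third place (0.983), and the one most like Btg1 and also most like Zfp36 was the ubiquitin ligase gene Cblb (0.982 and 0.966). Zfp36l2 was most like Bcorl1 (0.984), Tob1 most like Cldn9 (0.985), Rc3h1 most like Sin3a (0.973) and Elavl1 most like Dhx15 (0.979). Btg2 was most like Rhob (0.958 among 10330 genes), a small GTPase gene known as an immediate-early gene, and Khsrp most like G6pdx (0.956). For Tob2 the highest value was 0.794, with Ybx3.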

How the data were processed

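RNA from 3 populations of 4T1 cells, untreated or exposed to 17-DMAG, was sequenced in 18 libraries. The authors deposited raw counts of reads per gene. Per the labels, reads were demultiplexed with bcl2fastq 2.20, aligned to mm10 (GRCm38) with STAR and counted with featureCounts (Subread 1.6.2). Whether strand was used in counting, and how read pairs were counted, is not given in the sources used here. The members and gene lists were chosen with earlier results of these data known, so the lists give no independent support.

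Counts were tested with edgeR 4.0.16 in R 4.3.3 (quasi-likelihood, filterByExpr, TMM scaling, 1 mean per group), with Benjamini-Hochberg adjustment over 13507 genes and a threshold of 0.05. The near-identical replicates 1 and 2 of 17-DMAG-treated 4T1 were averaged, leaving 17 libraries. The common biological coefficient of variation was 0.0376. For normalized counts, each library was divided by its TMM-scaled size and multiplied by the mean of those sizes, 30965291, and CPM was divided by merged exon length where genes were compared with one another. Depth ranged from 23354461 to 55094630 counts per library, which limits Btg2 most. The replicates are described as biological, with no statement of separate cultures, so p-values measure the spread between these samples. An exact permutation test of 3 libraries against 3 could not go below 0.10, nor could one of 2 against 3.

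The text names the 10 members in every comparison, up to 4 called genes of each list and comparison with the largest fitted change whose higher group averaged 100 normalized counts or more, the genes whose pattern was most like each member (Pearson's r of log2 of the normalized count plus 1), and Hspa1b, Hsph1 and Abcb1b as checks of the treatment and the selection. Alternatives were other scaling (RLE, total counts, without Rn45s), other filters, DESeq2 1.42.0, a fit of only the groups compared, a replicate block, all 18 libraries kept apart, and each library left out. The procedure was tested on simulated data.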

Additional observations from a re-analysis of the deposited data

Results flagged for a closer look

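The response to 17-DMAG differed between the resistant populations and 4T1 for 7 members, by the interaction term of the edgeR fit with Benjamini-Hochberg adjustment. On the log2 scale, the response in 4T1R1 minus that in 4T1 was 0.71 for Zfp36 (adjusted p = 0.000679), 0.75 for Zfp36l1 (4.55e-09), 0.60 for Zfp36l2 (2.06e-13), 0.36 for Btg1 (2.05e-07), 1.31 for Btg2 (0.000915), 0.58 for Rc3h1 (4.46e-11) and 0.16 for Elavl1 (0.00861). For 4T1R2 minus 4T1 it was 0.66 for Zfp36 (0.000908), 0.86 for Zfp36l1 (8.32e-11), 0.84 for Zfp36l2 (4.28e-18), 0.44 for Btg1 (1.08e-09), 1.38 for Btg2 (0.000277), 0.73 for Rc3h1 (3.61e-14) and 0.16 for Elavl1 (0.0113). These 14 differences share the 4T1 samples. Groups of 3 libraries are too small for the search for single outlying samples.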

How the results depend on the processing

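Over 28 alternative settings, 2175 of the 2240 recomputed member values kept their direction and their side of the threshold, 31 lost their call, 6 gained one and 28 changed sign, all of the last being values that did not pass the threshold in the reported fit. Under total-count scaling, which shifts the median of all genes by −0.115 in the 4T1 response and by 0.149 in the difference of 4T1R1 from it, the log2 value was −0.0299 for Tob2 in 4T1, 0.0717 and 0.0927 for Tob2 and Khsrp in the 4T1R1 difference, 0.0546 for Khsrp in the 4T1R2 difference and 0.0049 for Rc3h1 in untreated 4T1R1. Without a filter, Zfp36l2 in untreated 4T1R2 was −0.0025. With libraries left out, values that changed sign ranged as follows: Zfp36l2 in untreated 4T1R2 −0.0146 to 0.0241, Btg2 there −0.1798 to 0.0317, Tob2 in the 4T1R1 response −0.0116 to 0.0375, in untreated 4T1R1 −0.0217 to 0.1008 and in the 4T1R2 difference −0.0551 to 0.0837 (−0.0061 without both averaged libraries), Rc3h1 in untreated 4T1R1 −0.0495 to 0.0082 and 4T1R2 −0.0196 to 0.0303, and Khsrp in the 4T1 response −0.0396 to 0.0142, in untreated 4T1R1 −0.0022 to 0.0516 and in the 4T1R2 difference −0.0448 to 0.0090.

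The count of members called ranged from 6 to 9 in 4T1R1 and from 4 to 7 in 4T1R2 with a library left out. For the deadenylases it ranged from 2 to 5 in 4T1, from 2 to 5 in 4T1R1 and from 0 to 1 in 4T1R2, where it was 2 under total-count scaling and 1 without a filter. It ranged from 8 to 15 and from 5 to 10 for decapping and exosome genes in 4T1 and 4T1R1. In 4T1R2, 0 of those were called under total-count scaling, the paralogues had 2 under it and 3 to 7 with a library left out, and the ZFP36-family targets had 4 to 8. The cause was not tested in any of these cases. Dropping a library also leaves fewer samples, and a treated 4T1 arm of 1 sample is assumed to vary like the other groups.

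The replicate number as a block left the members called at 7 in 4T1, 9 in 4T1R1 and 7 in 4T1R2 and changed no call of a member, and the calls over all genes came to 0.974 to 0.998 of those without it. Same-numbered libraries correlated by −0.0258 to 0.0496 in their deviations from the group means, and 7 of 18 correlated best with their own number, so the numbers were not taken to pair the samples. The median of genes with the AU-rich nonamer minus that of genes without it, a value added after seeing the data, ranged over the settings that keep all libraries from −0.00063 to 0.0061 in 4T1, 0.0323 to 0.0347 in 4T1R1 and 0.0169 to 0.0192 in 4T1R2.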
